A study of Drosophila melanogaster with 18 samples.

Results

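The genes described here encode enzymes of glycolysis in *Drosophila melanogaster*: *Hex-A*, *Pgi*, *Pfk*, *Ald1*, *Tpi*, *Gapdh1*, *Gapdh2*, *Pgk*, *Eno* and *PyK*. They were chosen by symbol as enzymes of the pathway, and all 10 were found among the 17288 genes of the expression table. RNA-seq covered 6 groups of 3 libraries each, namely the brains of females, the brains of males and the ovaries, in a *tud* mutant and a control genotype. The *tud* mutant flies were *y w; tud1 bw sp/Df(2R)PurP133* and the control flies were *y w; tud1 bw sp/CyO P[w+ hs-hid]*, so both carried the *tud1* chromosome and differed in the other copy of the second chromosome, a deficiency in the mutants and a balancer with a heat-inducible *hid* transgene in the controls. Flies were young, and the tissue of several animals was pooled in a library. The comparison of genotypes asks how loss of Tudor (Tud), a germ granule protein that is also made in glia, changes RNA levels.

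Glycolysis splits glucose into pyruvate and yields ATP and NADH. Hexokinase, phosphofructokinase and pyruvate kinase run its practically irreversible steps, and the remaining enzymes work close to equilibrium in either direction. In the fly brain, glia are known for strong glycolysis and hand lactate and alanine to neurons as fuel, while the germline of the ovary stores RNA and metabolites in the egg.

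In dm6 coordinates, the enzymes of the upper part of the pathway lay at chrX:9585675-9589813 (*Hex-A*), chr2R:8910900-8914069 (*Pgi*), chr2R:10109740-10117457 (*Pfk*), chr3R:26254069-26261591 (*Ald1*) and chr3R:30132981-30134599 (*Tpi*). Those of the lower part lay at chr2R:7791901-7793380 (*Gapdh1*), chrX:15868145-15869661 (*Gapdh2*), chr2L:2746880-2753068 (*Pgk*), chr2L:1724768-1729636 (*Eno*) and chr3R:22367536-22372746 (*PyK*). Values cover the exons of each gene, which add up to between 1443 bp in *Gapdh2* and 4377 bp in *Pfk*. *Ald1* overlaps asRNA:CR44321, *Pgk* overlaps *Cwc25* and *Bacc*, and *Eno* overlaps *Rrp40*. The use of strand in counting is not stated, so reads of these neighbours could be included. *Gapdh1* and *Gapdh2* are closely similar copies whose reads the counting could have split between them, and their separate values are uncertain to that extent.

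Levels are FPKM, fragments scaled to transcript length and sequencing depth, which can be compared between genes since they are per length. Brain libraries held an estimated 4900000 to 13500000 mapped fragments, ovary libraries 19500000 to 26900000, and at least 755 fragments stood behind every value of the 10 genes, a counting error of at most 3.64%. *tud* had 9.10 to 12.4 FPKM in mutant ovaries, against 61.0 to 67.2 FPKM in control ovaries, and 5 of the 6 mutant brains had 12.9 to 17.9 FPKM, against 20.2 to 36.2 FPKM in control brains. The library labelled mutant female brain replicate 2 went against its label, with 32.3 FPKM of *tud*, above all 3 control female brains (23.9 to 31.4 FPKM). Control male brain replicate 2 stood apart from the other brain libraries. Its median correlation with them was 0.836, against 0.899 to 0.946 for the others, and the male-specific RNA *roX2* was at 378 FPKM in it and at 11621 to 18619 FPKM in the other male brains. Its *roX1* was at 223 FPKM, against 225 to 1111 FPKM in the other male brains and 3.53 to 16.2 FPKM in female brains. The yolk protein gene *Yp1* was at 2.67 FPKM in it and at 638 to 2674 FPKM in female brains. Results that rest on either of these libraries are given with and without it.

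*Gapdh2*, which oxidizes glyceraldehyde-3-phosphate and forms NADH, had the highest mean of the 10 genes in every group, between 801 ± 114 FPKM in mutant female brains and 1321 ± 324 FPKM in control male brains (SD, n = 3 each). *Eno* and *PyK*, the last enzymes of the pathway, came next in all 4 brain groups, and their ranges overlapped each other there. By mean, *Eno* led *PyK* in mutant brains of both sexes and *PyK* led *Eno* in control brains of both sexes. In control males that order rested on replicate 2, with 1592 FPKM of *PyK* and 1115 FPKM of *Eno*. Control male replicate 1 had 522 FPKM of *PyK* and 580 FPKM of *Eno*, and replicate 3 had 681 and 675 FPKM. *Gapdh1* was below both in controls and its range did not overlap that of the neighbour above it in control males, where *Eno* had 790 ± 286 FPKM and *Gapdh1* had 472 ± 62.4 FPKM (SD, n = 3 each). *Hex-A* and *Pfk*, which start and commit the pathway, had low levels throughout. *Pfk* was lowest in mutant brains and in both ovary groups, and *Hex-A* was lowest in control brains. *Pgi*, *Pgk*, *Tpi* and *Ald1* lay between, and in both ovary groups *Pgi*, *Pgk* and *Tpi* did not differ beyond their ranges.

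**Figure D1:**
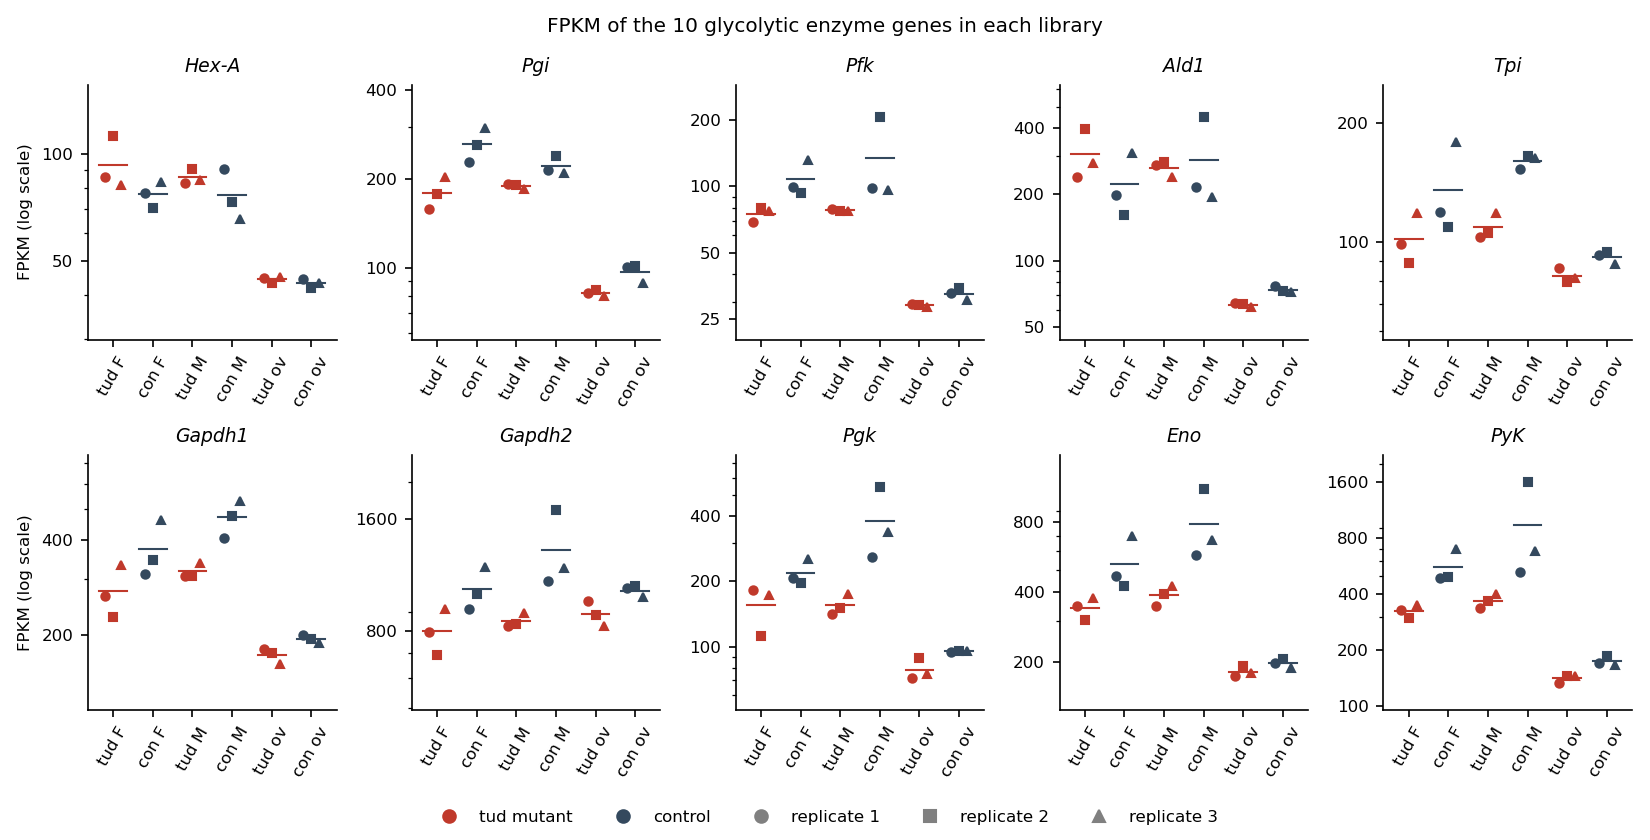
FPKM (log scale) of the 10 genes in each library of *tud* mutant (tud, red) and control (con, blue) female brains (F), male brains (M) and ovaries (ov); symbols are replicates and lines are means. Control male brain replicate 2 (square) is the highest brain library for *Pfk*, *Ald1*, *Gapdh2*, *Pgk*, *Eno* and *PyK*, with 1592 FPKM of *PyK*.

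In the brain, 7 of the 10 genes were lower in *tud* mutants than in controls: *Pgi*, *Pfk*, *Tpi*, *Gapdh1*, *Pgk*, *Eno* and *PyK*. The fitted falls ran from 0.77-fold of the control level for *Pgi* to 0.51-fold for *PyK*, with *Pgk*, *Eno* and *PyK*, enzymes of the lower part of the pathway, furthest down. *Gapdh2* did not pass the test, and neither did *Hex-A* nor *Ald1*, whose estimates were above control. The test was limma on log2(FPKM + 1) over all 12 brain libraries, averaging the differences of the sexes, with Benjamini-Hochberg adjustment over 10689 genes and a threshold of 0.05. Of all genes tested, 10.8% were called lower. The median log2 difference was -0.49 over the 10 genes and 0.07 over all genes tested. Without the library labelled mutant female brain replicate 2, the median of the 10 was -0.44 and only *Pgk* (-0.76, limma adjusted p = 0.0381) and *Eno* (-0.74, adjusted p = 0.0494) were called, where 5.56% of all genes were called lower. The adjusted p of the other 5 then lay between 0.0519 for *PyK* and 0.0810 for *Gapdh1*.

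*PyK*, pyruvate kinase, makes pyruvate and ATP in the final step. It had 328, 297 and 349 FPKM in mutant females, against 485, 491 and 694 FPKM in control females. In males it had 337, 366 and 399 FPKM in mutants, against 522, 1592 and 681 FPKM in controls. No mutant library reached any control library in either sex. The log2 difference was -0.97 ± 0.25 (SE, limma adjusted p = 0.0263) and -0.73 without control male brain replicate 2 (limma adjusted p = 0.0166). An exact permutation test of genotypes within each sex gave p = 0.005, the smallest that its 400 arrangements allow.

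*Eno*, enolase, forms the phosphoenolpyruvate that pyruvate kinase uses. Its values were 348, 306 and 377 FPKM in mutant females, against 469, 427 and 696 FPKM in control females. Mutant males had 349, 395 and 426 FPKM, against 580, 1115 and 675 FPKM in control males. Again the genotypes did not overlap within a sex. The log2 difference was -0.78 ± 0.20 (SE, limma adjusted p = 0.0250; exact permutation p = 0.005), and -0.64 without control male brain replicate 2.

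*Pgk*, phosphoglycerate kinase, carries out the earlier of the ATP-forming steps. It had 183, 111 and 174 FPKM in mutant females, against 206, 197 and 254 FPKM in control females. Mutant males had 141, 151 and 174 FPKM, against 260, 547 and 337 FPKM in control males. The genotypes were apart in both sexes. The log2 difference was -0.87 ± 0.20 (SE, limma adjusted p = 0.0199; exact permutation p = 0.005), and -0.72 without control male brain replicate 2.

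*Pfk*, phosphofructokinase, commits sugar to glycolysis. It had 68.7, 80.1 and 77.3 FPKM in mutant females, against 99.2, 93.1 and 132 FPKM in control females. Mutant males had 79.3, 77.1 and 77.2 FPKM, against 98.5, 207 and 96.8 FPKM in control males. The mutant values were close to each other and all below control. The log2 difference was -0.59 ± 0.19 (SE, limma adjusted p = 0.0460; exact permutation p = 0.005), and -0.41 without control male brain replicate 2.

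*Pgi*, glucose-6-phosphate isomerase, acts just before phosphofructokinase. Its levels were 158, 178 and 202 FPKM in mutant females, against 228, 261 and 297 FPKM in control females. Mutant males had 191, 191 and 185 FPKM, against 215, 239 and 209 FPKM in control males. The genotypes did not overlap in either sex, although the log2 difference was the smallest of the 7, at -0.38 ± 0.12 (SE, limma adjusted p = 0.0434, exact permutation p = 0.005). Without control male brain replicate 2 the *Pgi* difference was -0.36, just within the threshold (limma adjusted p = 0.0499).

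*Tpi*, triosephosphate isomerase, and *Gapdh1*, a glyceraldehyde-3-phosphate dehydrogenase, were apart between genotypes in males and overlapped in females. *Tpi* had 99.0, 88.5 and 119 FPKM in mutant females, against 119, 109 and 179 FPKM in control females. In mutant males it had 103, 105 and 119 FPKM, against 153, 165 and 163 FPKM in control males. The *Tpi* log2 difference was -0.47 ± 0.14 (SE, limma adjusted p = 0.0382; exact permutation p = 0.01). *Gapdh1* ranged from 229 to 333 FPKM in mutant females, against 313 to 464 FPKM in control females, and from 307 to 339 FPKM in mutant males, against 406 to 531 FPKM in control males. Its log2 difference was -0.50 ± 0.16 (SE, limma adjusted p = 0.0433; exact permutation p = 0.01). Without control male brain replicate 2 the adjusted p was 0.0515 for *Tpi* and 0.0511 for *Gapdh1*, so both calls were lost and 5 of the 10 genes were called. In that fit 9.73% of all genes were called lower.

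The remaining 3 genes were not called. *Gapdh2* had 797, 690 and 917 FPKM in mutant females, against 916, 1009 and 1185 FPKM in control females, and 829, 835 and 896 FPKM in mutant males, against 1092, 1692 and 1180 FPKM in control males. Its log2 difference was -0.49 ± 0.18 (SE, limma adjusted p = 0.0674; exact permutation p = 0.01), close to that of *Gapdh1*. *Hex-A*, hexokinase, had 86.0, 112 and 81.6 FPKM in mutant females, against 77.4, 70.3 and 83.4 FPKM in control females, and 83.0, 90.7 and 84.5 FPKM in mutant males, against 90.7, 73.3 and 65.5 FPKM in control males. The genotypes overlapped and the log2 difference was 0.22 ± 0.13 (SE, limma adjusted p = 0.205), with a 95% interval of -0.06 to 0.50. *Ald1*, aldolase, was the most variable of the 10 within mutant females, with 240, 395 and 278 FPKM, against 200, 161 and 307 FPKM in control females. In males it had 273, 281 and 241 FPKM in mutants, against 215, 451 and 195 FPKM in controls. Its log2 difference was 0.23 ± 0.25 (SE, limma adjusted p = 0.500) with an interval of -0.31 to 0.77, and 0.42 without control male brain replicate 2. The highest mutant value of both *Hex-A* and *Ald1* came from the library labelled mutant female brain replicate 2, without which their differences were 0.15 and 0.13.

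**Figure D2:**
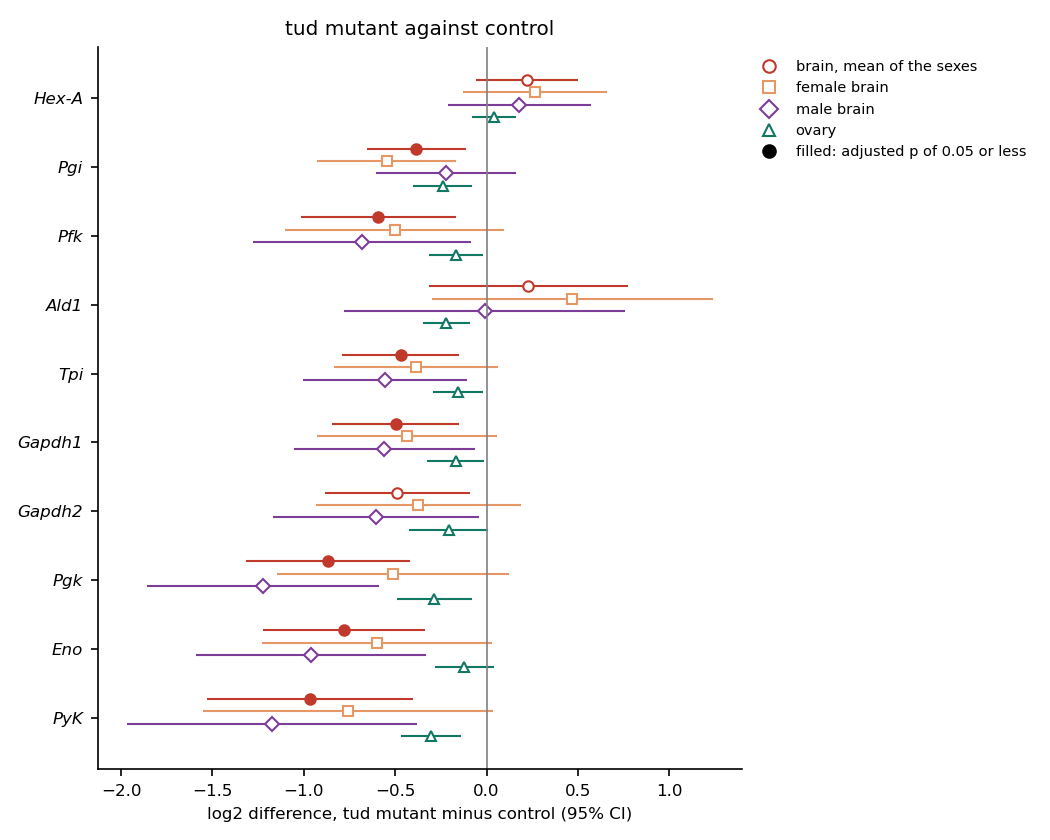
Log2 difference of FPKM + 1, *tud* mutant minus control, for each gene in the brain (mean of the sexes), female brain, male brain and ovary, with 95% confidence intervals from limma; filled symbols have an adjusted p of 0.05 or less. Filled symbols appear in the brain fit only, for 7 genes, from -0.38 (*Pgi*) to -0.97 (*PyK*).

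The libraries were also compared by rank, without a model. In both sexes every mutant library lay below every control library for 5 of the 10 genes (*Pgi*, *Pfk*, *Pgk*, *Eno* and *PyK*), as for 9.01% of all genes tested. This held for 5 genes in females alone (15.3% of all genes) and for 8 in males alone (15.9%), where *Tpi*, *Gapdh1* and *Gapdh2* were added. The summed level of the 10 genes was 2486 to 2908 FPKM in mutant females, against 3113 to 4292 FPKM in control females, and 2692 to 2942 FPKM in mutant males, against 3633 to 6558 FPKM in control males. As a share of the FPKM of all protein-coding genes, however, the sums overlapped, at 0.370 to 0.527% in mutant females, against 0.499 to 0.677% in control females, and at 0.465 to 0.503% in mutant males, against 0.434 to 1.04% in control males. The female overlap came from the library labelled mutant female brain replicate 2. Without it the mutant female shares were 0.370 and 0.445%, below every control female library. The male overlap came from control male brain replicate 3, at 0.434%. Control male replicates 1 and 2 were at 0.542 and 1.04%, above every mutant male library.

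The direction of the brain differences was stable while the calls were not. Leaving out each brain library in turn kept the sign of all 10 differences, but the number of genes called ran from 0 to 8. It was 0 without control female brain replicate 3, without mutant male brain replicate 1 or without mutant male brain replicate 2. It was 2 without the library labelled mutant female brain replicate 2 or without control female brain replicate 2, 3 without mutant female brain replicate 1 or mutant male brain replicate 3, and 4 without control female brain replicate 1 or control male brain replicate 3. The share of all genes called moved too, between 3.58 and 39.1% in these fits. Scaling also mattered. When protein-coding genes were rescaled to the same sum in every library, only *Pgk* was called and the median of the 10 genes shifted to -0.29. Over the 9335 protein-coding genes tested in that fit the median was 0.22, with 16.8% called higher and 4.81% lower, whereas without rescaling 9312 protein-coding genes had a median of 0.04, with 14.2% called higher and 11.6% lower. With quantile normalization *Pgk* and *Tpi* were called, with 10.9% of all genes higher and 13.8% lower. Median-of-ratios scaling divides each library by the median ratio of its genes to their geometric means. With it 7 of the 10 genes were called lower and their median was -0.54, with 12.5% of all genes higher and 12.1% lower.

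**Figure D3:**
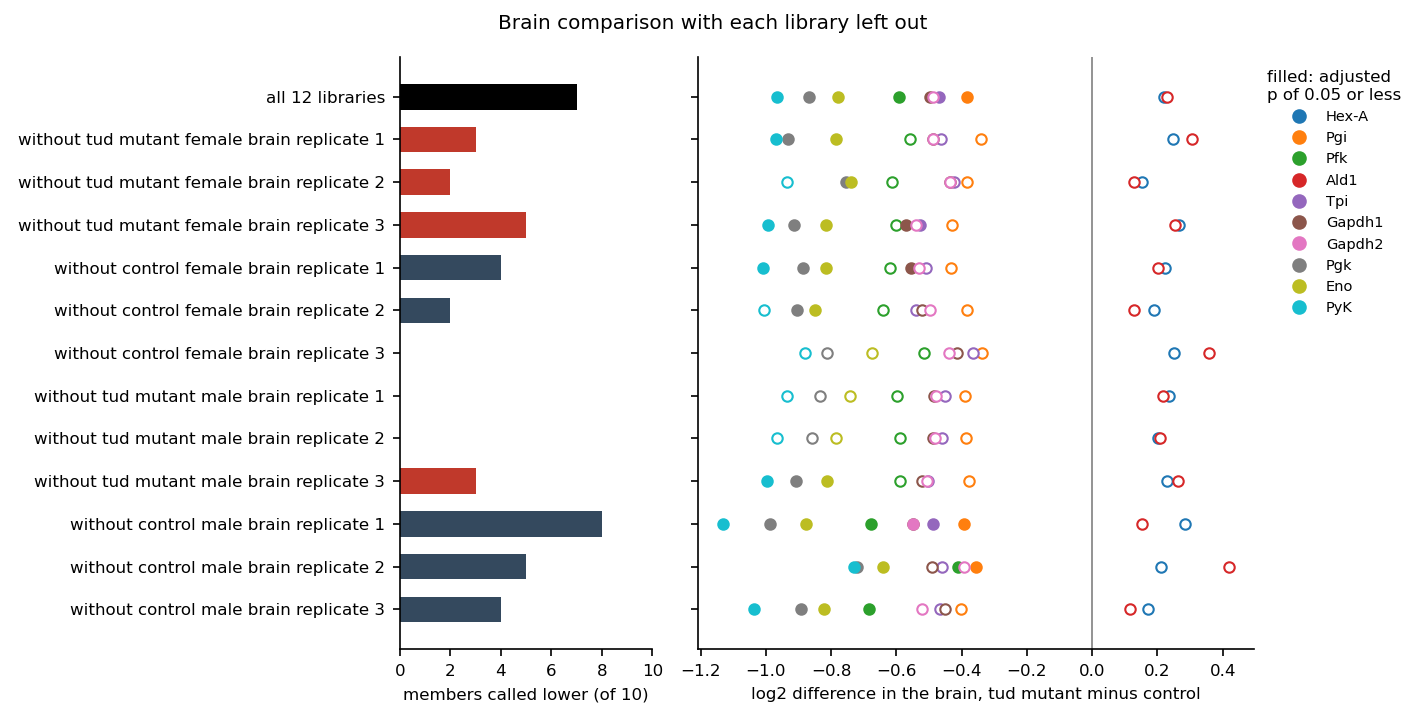
Number of the 10 genes called lower in *tud* mutant brain (left) and each gene's log2 difference, mutant minus control (right), with all 12 brain libraries (black) and with each library left out (red, mutant; blue, control); filled symbols have an adjusted p of 0.05 or less. Every gene stays on its side of 0, while the number called runs from 0 to 8.

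Some cell type markers moved with genotype in the same brain libraries. Of 10 marker lists, 4 had a higher summed FPKM in every mutant than in every control library in females and 4 in males, and the other 6 overlapped in each sex. Neuronal and ovarian germline markers were apart in both sexes. The 6 neuronal markers added up to 455 to 860 in mutant females, against 215 to 418 in control females, and to 588 to 711 in mutant males, against 236 to 506 in control males. The 7 ovarian germline markers, low in brain, came to 36.7 to 43.5 in mutant females, against 31.3 to 32.5 in control females, and to 36.9 to 38.8 in mutant males, against 25.7 to 32.1 in control males. Glial markers were apart in females alone, the 10 of them adding up to 3434 to 3751 in mutant females, against 3038 to 3244 in control females, and to 3350 to 3701 in mutant males, against 3424 to 3591 in control males. The testis list was apart in females too, at 2.24 or less in all of them. Photoreceptor and fat body markers were apart in males alone. The 13 photoreceptor markers added up to 3134 to 10759 in mutant females, against 3500 to 3881 in control females, and to 5430 to 8175 in mutant males, against 2558 to 3911 in control males. The lowest mutant female value came from the library labelled mutant female brain replicate 2, and the others were at 7469 or more. The 9 fat body markers added up to 2146 to 6339 in mutant females, against 2443 to 4715 in control females, and to 1102 to 1307 in mutant males, against 649 to 1025 in control males. Markers of muscle, a tissue known for high glycolysis, overlapped in both sexes, as did those of haemocytes, follicle cells and gut. The part of these cell types in the glycolytic differences was not tested, and in such tissue samples fewer cells of a type and less RNA per cell cannot be told apart. Protein-coding genes with a span like that of the 10 genes had a median brain difference of -0.03, and those with a mean level like theirs had one of -0.06. Of these, 13.6% by span and 15.9% by level were called lower, against 10.8% of all genes tested. All 5 genes on the second chromosome were called, against 2 of the 5 on other chromosomes (X or 3R), where 10.8% of all genes tested on the second chromosome and 10.9% on the others (X, 3L and 3R) were called lower. Without the library labelled mutant female brain replicate 2 these counts were 2 and 0, with 5.63 and 5.65% of all genes called lower. Without control male brain replicate 2 they were 4 and 1, with 9.75 and 9.88%. They were 1 and 1 with quantile normalization (13.7 and 14.2%). After rescaling of protein-coding genes they were 1 and 0 (5.34 and 4.53% of the protein-coding genes). Effects of the deficiency or balancer on that chromosome and of missing Tud cannot be told apart.

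Within a single sex, the test called none of the 10 genes. In females limma gave 0 calls (0.337% of all genes were called) and 1 gene, *Pgi*, with an unadjusted p under 0.05, where 6.9% of all genes were lower at that level. In males it gave 0 calls (1.23% of all genes) and 7 genes with an unadjusted p under 0.05 in the lower direction, against 14.0% of all genes. The lowest adjusted p in males was 0.0631 for *Pgk* (log2 difference -1.22 ± 0.29, SE, limma). Without control male brain replicate 2 the male differences were -0.93 for *Pgk*, -0.69 for *Eno* and -0.70 for *PyK*. In that fit limma called 0 of the 10 in males (0.438% of all genes). Without control male brain replicate 1 limma called 4 of the 10 lower in males, with 12.4% of all genes lower and 31.7% called in either direction. Without the library labelled mutant female brain replicate 2 it called 1, *Pgk*, with 5.20% of all genes lower and 9.60% called in either direction. A comparison of 3 libraries with 3 cannot go below p = 0.1 in the exact test.

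No difference between the changes of the sexes was detectable with these libraries. For the female change minus the male change, limma called 0 of the 10 genes (0.0187% of all genes), and 0 had an unadjusted p under 0.05. The widest estimates were 0.71 for *Pgk* (95% interval -0.19 to 1.61) and 0.48 for *Ald1* (-0.60 to 1.57), so differences of that size were within the error. Without control male brain replicate 2 these estimates were 0.42 for *Pgk* and 0.10 for *Ald1*. Nor was any of the 10 called in female against male brain with both genotypes pooled (0.72% of all genes). In that comparison 8 of the 10 estimates were lower in females, from -0.07 for *Ald1* to -0.38 for *PyK*, and 0 had an unadjusted p under 0.05. Without control male brain replicate 2 *PyK* was at -0.15 and the signs for *Ald1* and *Pfk* turned. Without the library labelled mutant female brain replicate 2 the sign for *Hex-A* turned.

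The ovary libraries were far closer to each other than those of the brain, with a median residual SD of 0.11 against 0.33 on the log2 scale. No gene passed the test in *tud* mutant ovary (limma, 0 of 10 called, 4.09% of all genes), although 9 of the 10 estimates were below control and 7 had an unadjusted p under 0.05 in that direction, against 8.6% of all genes. For 8 of the 10 every mutant library lay below every control library, as for 11.4% of all genes tested. The median log2 difference was -0.19 over the 10 genes and 0.00 over all genes. Of the 10 marker lists, 4 were apart between genotypes in the ovary as well. The 7 ovarian germline markers added up to 1479 to 1680 FPKM in mutant ovaries, against 1309 to 1410 FPKM in control ovaries, and the 9 fat body markers to 732 to 761 FPKM in mutant ovaries, against 785 to 928 FPKM in control ovaries. Glial markers came to 111 to 114 FPKM in mutant ovaries, against 102 to 110 FPKM in control ovaries, and gut markers stayed under 1 FPKM. The part of these cell types in the ovary values was not tested.

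*PyK* again had the largest difference, with 133, 145 and 144 FPKM in mutant ovaries, against 170, 185 and 166 FPKM in control ovaries. The ranges were apart and the log2 difference was -0.30 ± 0.07 (SE, limma adjusted p = 0.0642). *Pgk* had 71.5, 88.6 and 74.5 FPKM in mutant ovaries, against 94.3, 95.6 and 95.4 FPKM in control ovaries, a log2 difference of -0.28 ± 0.09 (SE, limma adjusted p = 0.142) that was called without mutant ovary replicate 2 (-0.38, limma adjusted p = 0.0268). *Ald1*, whose brain estimate was above control, had 64.6, 63.5 and 61.5 FPKM in mutant ovaries, against 76.6, 72.8 and 71.9 FPKM in control ovaries. Its ovary difference was -0.22 ± 0.05 (SE, limma adjusted p = 0.0801). The genotypes overlapped for *Hex-A*, as in the brain, with 44.8, 43.3 and 44.9 FPKM in mutant ovaries, against 44.3, 41.8 and 43.1 FPKM in control ovaries (log2 difference 0.04, 95% interval -0.08 to 0.16).

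The summed level of the 10 genes was 1684 to 1832 FPKM in mutant ovaries, against 1949 to 2083 FPKM in control ovaries. Whether the ovary change differed from that of the female brain was tested directly, and limma called 0 of the 10 (1.05% of all genes), with 0 at an unadjusted p under 0.05. *PyK* came nearest, the ovary change being 0.45 above the female brain change (95% interval -0.002 to 0.91), and *Ald1* differed the other way by -0.69 (-1.39 to 0.01). With a library left out, the *PyK* difference ran from 0.28 to 0.54 and that of *Ald1* from -0.95 to -0.48. Without the library labelled mutant female brain replicate 2 limma also called 0 of the 10 (3.38% of all genes).

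In ovary against female brain, with both genotypes pooled, limma called 9 of the 10 genes lower in the ovary, where 46.9% of all genes were lower and 38.7% higher, and the median log2 difference was -1.11 over the 10 genes and -0.18 over all genes. For 8 of the 10 every ovary library lay below every female brain library, as for 37.9% of all genes. *Ald1* had the largest difference, with 61.5 to 76.6 FPKM in ovaries, against 161 to 395 FPKM in female brains, a log2 difference of -1.87 ± 0.16 (SE, limma adjusted p = 4.67e-07). *Pfk* followed at -1.52, then *PyK* at -1.43, *Pgi* at -1.27, *Eno* at -1.15, *Pgk* at -1.07, *Hex-A* at -0.93, *Gapdh1* at -0.79 and *Tpi* at -0.41. The same number, 9 of the 10, was called without the library labelled mutant female brain replicate 2, with *Ald1* at -1.77 and *Gapdh2* at 0.03.

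*Gapdh2* was the exception. It had 828 to 1056 FPKM in ovaries, against 690 to 1185 FPKM in female brains, and a log2 difference of 0.08 ± 0.12 (SE, limma adjusted p = 0.534, 95% interval -0.18 to 0.33). It thus made up 49.2 to 52.7% of the summed FPKM of the 10 genes in ovaries, against 27.6 to 31.9% in female brains. The ratio of *Gapdh2* to *Gapdh1*, looked at after these values were seen, was 5.01 to 5.42 in ovaries, against 2.56 to 3.01 in female brains, with no overlap. Under quantile normalization *Gapdh2* was called higher in the ovary (0.89, limma adjusted p = 0.000112), and the split of all genes was 36.9% lower and 45.6% higher. With protein-coding genes rescaled to one sum it was called higher too (0.28, limma adjusted p = 0.0192), and *Tpi* was no longer called (-0.21, limma adjusted p = 0.120).

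**Figure D4:**
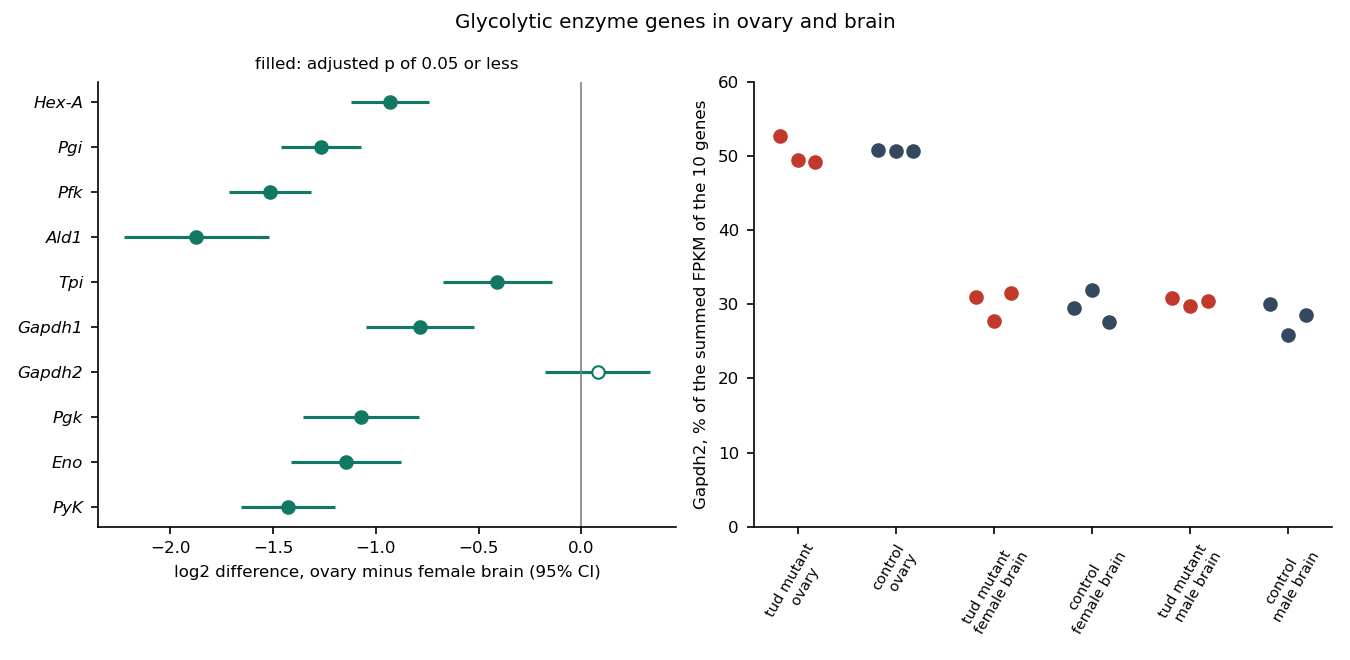
Left, log2 difference of FPKM + 1, ovary minus female brain, for each gene with its 95% confidence interval from limma (filled, adjusted p of 0.05 or less); right, *Gapdh2* as a percentage of the summed FPKM of the 10 genes in each library (red, *tud* mutant; blue, control). *Gapdh2* sits near 0 on the left, and takes 49.2 to 52.7% of the sum in ovaries and 25.8 to 31.9% in brains.

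Glycolysis is fed and drained by neighbouring pathways, whose genes were counted in the same fits. In mutant brain 10.8% of all genes were called lower and 14.2% higher, and in mutant ovary 4.09% were called in either direction. The pentose phosphate branch, which takes glucose-6-phosphate to make NADPH and ribose, had 5 of 7 genes lower and 0 higher in mutant brain, with a median log2 difference of -0.88. The largest falls were *Pgd* (6-phosphogluconate dehydrogenase) at -1.20 ± 0.31, *Taldo* (transaldolase) at -1.12 ± 0.30 and *Rpe* (ribulose-phosphate epimerase) at -1.11 ± 0.26 (SE, limma adjusted p = 0.0251, 0.0270 and 0.0190). All 5 calls were also made after rescaling of protein-coding genes, while 4 were made without control male brain replicate 2 and 3 (*Pgd*, *Rpe* and *Taldo*) without the library labelled mutant female brain replicate 2. In mutant ovary 0 of 7 were called.

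Around pyruvate, lactate and glycerol-3-phosphate, 5 of 13 genes were lower and 1 higher in mutant brain, with a median of -0.46. *Pdhb*, a subunit of pyruvate dehydrogenase, fell by 0.89 on the log2 scale, *Mdh1*, the cytosolic malate dehydrogenase, by 0.84 and *Gpo1*, the mitochondrial glycerol-3-phosphate oxidase, by 0.83. After rescaling of protein-coding genes only *Pdhb* and *Mdh1* were called lower. The higher gene, *Gpdh3* (0.73), named after its value was seen, was no longer called without control male brain replicate 2, nor without the library labelled mutant female brain replicate 2, without which 4 genes were lower. *Ldh*, lactate dehydrogenase, was at -0.46 ± 0.22 (SE, limma adjusted p = 0.142) and *Gpdh1*, glycerol-3-phosphate dehydrogenase, at -0.06 ± 0.13 (adjusted p = 0.749). In mutant ovary 1 of 12 was called, the alanine aminotransferase *CG1640*, at -0.35 ± 0.05 (limma adjusted p = 0.0184). Of the citrate cycle genes, 4 of 15 were lower in mutant brain, with *SdhB* at -0.82, *Mdh2* at -0.56 and *SdhC* at -0.55, and 2 were lower without control male brain replicate 2, 2 without the library labelled mutant female brain replicate 2 and 0 after rescaling of protein-coding genes.

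Of the 13 other enzymes listed for the glycolytic steps, 6 were expressed highly enough to be tested in brain. None of these was called lower, and 1 was called higher, *CG7362* at 0.84 ± 0.26 (SE, limma adjusted p = 0.0381), while the phosphoglycerate mutase *Pglym78*, the step between *Pgk* and *Eno*, was at -0.27 ± 0.17 (adjusted p = 0.248). Among regulators and gluconeogenic genes 1 of 11 was lower, *Pepck2* at -0.90, and 2 were higher, the sugar sensor *Mondo* at 0.68 and *G6P* (glucose-6-phosphatase) at 0.38. The calls of *CG7362* and *Pepck2* were lost without control male brain replicate 2, and those of *CG7362*, *Pepck2* and *Mondo* without the library labelled mutant female brain replicate 2. That of *Pepck2* was also lost after rescaling of protein-coding genes. *ERR*, the oestrogen-related receptor that drives glycolytic genes in the fly embryo, was at 0.15 ± 0.15 (adjusted p = 0.480) and *Pfrx*, which makes the activator of phosphofructokinase, at 0.13 ± 0.18 (adjusted p = 0.605). Of trehalose, glycogen and sugar transport genes 2 of 10 were lower, glycogen phosphorylase (*Glyp*) at -0.71 and the branching enzyme *AGBE* at -0.69, and the call of *AGBE* was lost without either of these libraries and that of *Glyp* after rescaling. In mutant ovary 0 genes of these lists or of the citrate cycle were called.

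**Figure D5:**
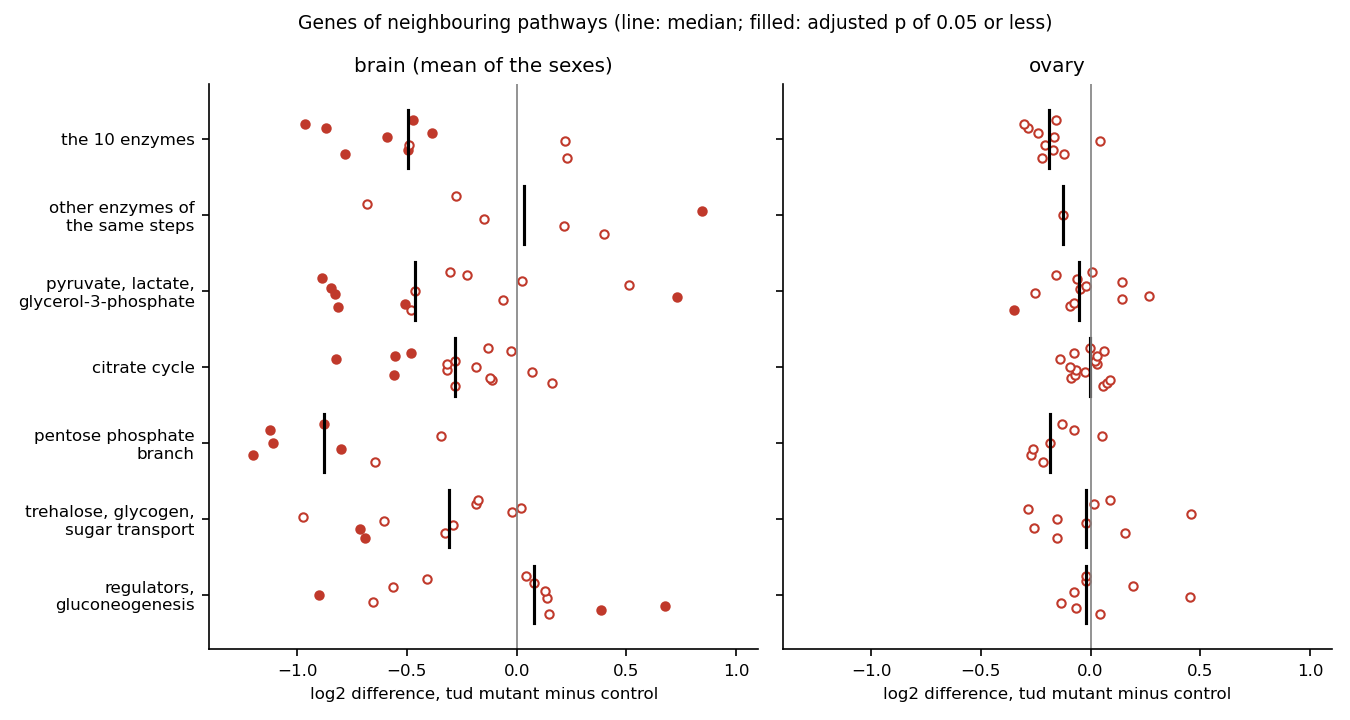
Log2 difference of FPKM + 1, *tud* mutant minus control, of the genes of each pathway list in brain (left) and ovary (right); points are genes, filled where the adjusted p was 0.05 or less, and lines are medians. In the brain the pentose phosphate branch has the lowest median, -0.88, and the 10 glycolytic enzymes have -0.49.

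In ovary against female brain 46.9% of all genes were called lower and 38.7% higher. The pentose phosphate branch ran opposite to the 10 enzymes, with 5 of 7 genes higher and 0 lower in ovary and a median log2 difference of 1.09. *Rpe* was higher by 1.91, *Pgd* by 1.56 and the transketolase *CG8036* by 1.13. Of the citrate cycle genes 13 of 15 were lower, with *Ogdh* at -1.94, and 1 was higher. Of the pyruvate list 10 of 13 were lower, with *Gpo1* at -3.41 and *Ldh* at -2.16, and 2 were higher. Trehalose and transport genes were lower for 6 of 10, led by *Tps1* (trehalose synthesis) at -4.38, and higher for 1. Regulators were lower for 7 of 11, led by *G6P* at -4.07, and higher for 2. The higher genes, named after their values were seen, were *Idh3a*, *Gpdh3*, *Mpc1*, *UGP*, *Mondo* and *tgo*. All 5 of the other glycolytic enzymes that could be tested were lower.

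The genes whose profile was nearest to the mean of the 10 enzymes were sought by the root mean square difference of log2 values centred on each gene's mean. Over the 12 brain libraries they were *CG1640* (0.08), *Aldh-III* (0.08), *dsh* (0.09), *Rpt1* and *Rpn8* (0.10 each), against a median of 0.50 for all other genes. Among the 10 themselves *Gapdh2* was nearest to their mean (0.08), and *Hex-A* (0.44) and *Ald1* (0.43) were farthest. Over all 18 libraries the nearest were *CtsF*, *Dgp-1*, *FucT6*, *CG7766* and *Pink1* (0.11 to 0.13), and *Gapdh2* was the farthest of the 10 (0.52).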

How the data were processed

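RNA-seq (ribosomal RNA depletion, stranded kit) was available for 18 libraries in 6 groups, as named in the labels. Per the labels, the authors mapped reads to dm6 with TopHat2 2.0.13 and wrote FPKM with Cuffnorm 2.2.1. The deposited FPKM values were used as given, since the scaling between libraries is not stated in the sources used here. Library FPKM sums ranged from 742402 to 3411767, and mapped fragments were estimated from the steps between low values. Positions and symbols came from the Ensembl release 115 annotation (17016 of 17288 identifiers matched).

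Values were analysed as log2(FPKM + 1) with limma 3.58.1 (R 4.3.3), with empirical Bayes moderation with a trend, in genes with a mean of at least 1 FPKM in the fit, and tested on simulated data. Fits used the 12 brain, 6 ovary, or 12 ovary and female brain libraries. Fold changes are on the log2(FPKM + 1) scale and understate those of low genes. Single genes were checked by exact permutation tests (two-sided, 20 or 400 arrangements). The study's methods describe the libraries of a group as biological replicates.

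The genes and lists were chosen with earlier results of these data known. Named were all 10 enzymes, of each list at most 3 called genes with the largest difference, *Pglym78*, *Ldh*, *Gpdh1*, *Pfrx* and *ERR*, and the 5 genes nearest in profile. Alternatives were 3 other scalings, a filter at 5 FPKM or none, a pseudocount of 0.1, no trend, an adjusted p of 0.01, the replicate number as a block, other sex terms, and leaving out each library. The *Gapdh2* ratio and the classes of span, level and chromosome were added after seeing the data. Plots used Python 3.11.15 and matplotlib 3.10.9.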

Additional observations from a re-analysis of the deposited data

How the results depend on the processing

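Of the 1660 re-computed single differences, 1556 kept their sign and their side of the threshold, 71 lost and 10 gained a call, and 23 changed sign. Called in brain were 7 genes with median-of-ratios scaling, 2 with quantile normalization and 1 with protein-coding genes rescaled to one sum. The number was 0 at an adjusted p of 0.01, and 0 to 8 with a library left out. The shares of all genes tested that were called lower were 12.1% with median-of-ratios scaling and 13.8% with quantile normalization. They were 4.81% after rescaling and 0.533% at 0.01. Leaving out a library gave 0 to 4 calls in male brain and 0 to 1 in ovary. The replicate numbers did not pair the samples: deviations of same-numbered brain libraries correlated between -0.156 and 0.369. With a replicate block 5 genes were called in brain instead of 7, *Pgi* (adjusted p = 0.0547, limma) and *Pfk* (0.0537) being lost, and no other call on the 10 genes changed. With that block 10.8% of all genes were called lower in brain. The sign changes were all in differences that were not called. After rescaling of protein-coding genes the male brain difference was 0.12 for *Pgi* and 0.33 for *Ald1*, the female minus male change was -0.18 for *Hex-A*, -0.090 for *Pfk*, -0.10 for *Tpi*, -0.15 for *Gapdh1* and -0.042 for *Gapdh2*, and female minus male brain was 0.025 for *Ald1*. With quantile normalization the male difference was 0.045 for *Ald1*, the female minus male change -0.047 for *Gapdh1*, and the ovary minus female brain change -0.084 for *Gapdh2*. The cause was not tested. With a library left out, the male brain difference of *Ald1* ran from -0.24 to 0.37. The female minus male change ran from -0.056 to 0.19 for *Hex-A*, -0.18 to 0.37 for *Pfk*, -0.021 to 0.29 for *Gapdh1* and -0.057 to 0.75 for *PyK*. Female minus male brain ran from -0.0094 to 0.12 for *Hex-A*, -0.23 to 0.040 for *Pfk* and -0.20 to 0.12 for *Ald1*.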
